A study of Mus musculus with 18 samples.

Results

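Cholesterol and fatty acid synthesis was followed through 32 genes, chosen as a named list of pathway enzymes and their regulators, and all 32 were found among the 23228 genes of the deposited expression table. They comprised 17 genes of sterol synthesis, 5 regulators and 10 genes of fatty acid synthesis and desaturation. Levels are in FPKM, fragments per kilobase of transcript and per 1e6 mapped fragments. Of the 32 members, 30 reached 5 FPKM in at least 1 sample, Acacb stayed below that level, and Hmgcs1 was listed at 0 in both samples.

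The series concerns Ptf1a, a transcription factor of the pancreas and of the dorsal neural tube, and most of its samples are of chromatin. RNA was sequenced from 2 mouse tissues of the ICR strain, both labelled WT. For the first sample, E12.5 neural tubes were dissociated with trypsin and the GFP-positive cells were collected on a cell sorter. Their embryos carried the transgene 2.3Ptf1a-GFP, whose GFP is driven by an autoregulatory enhancer of Ptf1a of 2.3 kb and by the basal promoter of beta-globin, so the cells are those in which this enhancer was active or GFP persisted. The second sample was whole pancreas at E15.5, not sorted, which holds every cell type of the organ. The labels name 2 libraries for each tissue, but a single column was deposited for each, so no SD and no p-value can be given. Tissue, stage, sorting and RNA extraction differed together and cannot be told apart, and the protocol names 2 library kits, with pancreas under both. In such bulk values, fewer cells of a type and less RNA per cell cannot be told apart either.

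Sterols and fatty acids are both built from cytosolic acetyl-CoA. The mevalonate pathway makes isoprenoid units, which are joined into squalene, closed into lanosterol and trimmed to cholesterol, while fatty acid synthase makes palmitate, which is then lengthened and desaturated. The transcription factors SREBP-1 and SREBP-2 drive both sets of enzymes when membrane sterol is low: SCAP escorts them from the endoplasmic reticulum to the Golgi for cleavage, and the INSIG proteins hold SCAP back when sterol is abundant.

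Promoters of the members were compared for short motifs, which the choice of members did not use. SREBPs are known to work with NF-Y, which binds CCAAT, and with Sp1, which binds GC boxes. RefSeq promoter windows (GRCm38.p6, 250 bases before to 50 after each annotated start) were found for 26 of the 32 members, and not for Fdps, Fdft1, Sqle, Scd1, Scd2 and Fads1. CCAAT, searched on both strands, was present for 21 of the 26 members (80.8%), against 44.2% of the 7572 genes with a window and a level of 5 FPKM, 41.1% of all 27025 genes with a window and 37.4% of all 32851 windows. A gene may have several windows, and the members had 34, so the shares of genes are the like comparison. In 12 members it occurred at least 2 times over all windows of the gene. This was not counted for other genes, so it cannot be read as a trait of the members. GGGCGG, the GC box, was present for 20 members (76.9%), against 71.9% of those expressed genes and 38.2% of all genes with a window. The palindromic E box CACGTG was present for 6 members (23.1%), against 12.1% and 8.09%. The sterol element, searched as TCACNCCAC on both strands, was present for 1 member, Hmgcs1 (3.85%), against 1.47% and 1.44%. Only this exact string was searched, so elements that differ from it by a letter were not counted, and the other members cannot be said to lack one.

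The stretches below are those of members on which the levels turn. Mvk and Cyp51 stand for sterol enzymes that were higher in neural tube, Fasn had the largest difference in log2(FPKM + 1) as deposited, Srebf2 and Insig1 were the regulators that lay farthest apart, and Hmgcs1 held the sterol element. Each is the 220 bases before the annotated start on the gene's own strand, with matches to the CCAAT box on either strand, the E box and the sterol element in capitals.
Mvk, chr5:114444049-114444268, plus strand: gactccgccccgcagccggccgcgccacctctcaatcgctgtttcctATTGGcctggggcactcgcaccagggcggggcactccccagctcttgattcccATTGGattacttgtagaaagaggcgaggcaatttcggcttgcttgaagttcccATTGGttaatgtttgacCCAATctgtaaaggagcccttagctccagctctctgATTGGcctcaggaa
Cyp51, chr5:4104698-4104917, minus strand: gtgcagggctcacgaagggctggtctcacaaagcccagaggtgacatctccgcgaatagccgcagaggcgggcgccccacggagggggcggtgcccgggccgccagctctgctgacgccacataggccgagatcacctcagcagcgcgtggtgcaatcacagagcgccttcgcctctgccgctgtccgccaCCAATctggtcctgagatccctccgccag
Hmgcs1, chr13:119690131-119690350, plus strand: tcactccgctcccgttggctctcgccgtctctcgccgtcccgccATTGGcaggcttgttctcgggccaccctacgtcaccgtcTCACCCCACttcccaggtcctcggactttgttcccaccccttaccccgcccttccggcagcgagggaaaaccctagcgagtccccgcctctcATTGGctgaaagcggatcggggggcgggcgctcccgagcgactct
Fasn, chr11:120824548-120824767, minus strand: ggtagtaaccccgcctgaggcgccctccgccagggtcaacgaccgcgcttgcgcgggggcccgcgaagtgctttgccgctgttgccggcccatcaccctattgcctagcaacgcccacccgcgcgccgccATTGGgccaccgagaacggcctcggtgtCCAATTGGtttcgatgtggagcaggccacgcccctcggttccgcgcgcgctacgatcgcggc
Srebf2, chr15:82147049-82147268, plus strand: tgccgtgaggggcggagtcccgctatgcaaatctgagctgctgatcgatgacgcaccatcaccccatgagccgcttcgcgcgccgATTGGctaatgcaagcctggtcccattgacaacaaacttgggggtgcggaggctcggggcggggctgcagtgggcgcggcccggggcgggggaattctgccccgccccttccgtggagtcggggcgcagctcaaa
Insig1, chr5:28071192-28071411, plus strand: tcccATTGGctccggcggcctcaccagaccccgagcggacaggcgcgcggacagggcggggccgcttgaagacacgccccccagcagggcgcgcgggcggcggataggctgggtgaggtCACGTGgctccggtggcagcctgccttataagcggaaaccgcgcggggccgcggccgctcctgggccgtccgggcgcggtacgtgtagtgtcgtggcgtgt

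Mvk carried 5 CCAAT boxes in this stretch and Hmgcs1 carried 2 besides its sterol element. In Fasn a pair on opposite strands overlapped. Insig1, higher in pancreas, and Fasn, higher in neural tube, both held the box. The start to which the Fasn window belongs lies 369 bases upstream of the start in GENCODE M1, the gene annotation of the older mouse build mm9. Other windows lay farther off, that of Acacb 18983 bases and that of Acaca 65766 bases downstream of the GENCODE start. For 3 of the 21 members with CCAAT (Acacb, Dhcr7 and Pmvk) the box was found only in windows more than 1000 bases from that start. A match is a run of letters and not a measured binding site.

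**Figure D1:**
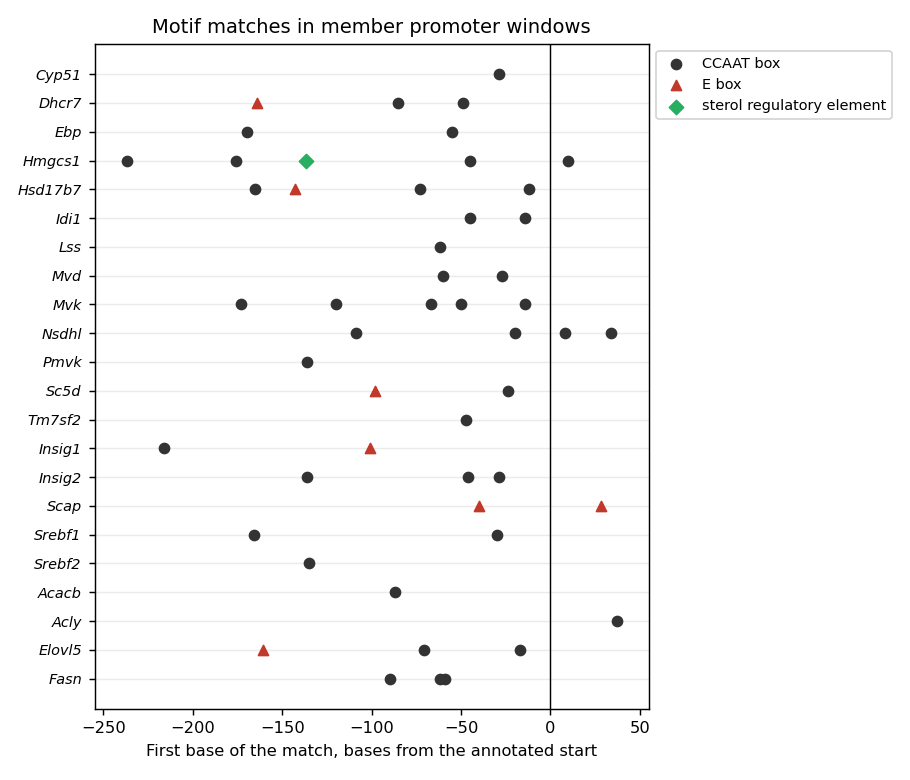
Positions of CCAAT box, E box and sterol element matches on both strands of the RefSeq windows, in bases from the annotated start (0), for the 22 members with any match. Most CCAAT boxes lay upstream of the start, Mvk held 5 of them, and Hmgcs1 was the member with the sterol element as searched (TCACNCCAC).

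Both samples carried the markers of their tissues. All 9 neural tube markers were at least 4 times higher in neural tube, among them Pax2 at 112 FPKM in neural tube and 0.00811 FPKM in pancreas, and all 9 pancreas markers were at least 4 times higher in pancreas. Summed markers of other cells were mostly higher in pancreas. Those of mesenchyme (7 genes) came to 37.1 FPKM in neural tube and 1309 FPKM in pancreas, those of macrophages (5) to 5.83 in neural tube and 208.6 in pancreas, those of endothelium (5) to 6.29 in neural tube and 72.3 in pancreas, and those of erythroid cells (5) to 609.8 in neural tube and 15873 in pancreas. Adipocytes are the best known fat-making cells, and of 6 adipocyte markers Adipoq was listed at 0 in both samples, Fabp4 at 0 in neural tube and 68.0 FPKM in pancreas, and the other 4 at no more than 0.101 FPKM. The 7 hepatocyte markers summed to 16.4 FPKM in neural tube and 305 FPKM in pancreas, mostly from Ttr, which islet cells also make, with 15.9 FPKM in neural tube, against 278 FPKM in pancreas. The other 6 reached at most 0.286 FPKM in neural tube and 12.4 FPKM in pancreas, where Alb was the highest of them. The 7 oligodendrocyte and Schwann markers summed to 12.9 FPKM in neural tube and 19.1 FPKM in pancreas. The part of these cells in the differences below was not tested. The smallest steps between FPKM values put the depth of pancreas at about 1.82 times that of neural tube.

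Most members stood higher in neural tube, by modest amounts. Differences are in log2(FPKM + 1), neural tube minus pancreas, and a gene was called at 4 times (2 in log2) or at 2 times (1 in log2) if it also had 5 FPKM or more in the higher sample. Such a call states a size and carries no test. At 4 times, 2 members were called higher in neural tube, Fasn and Scd1, and 0 higher in pancreas, where 10.3% and 11.9% of the 10744 genes at 5 FPKM were called in those directions. At 2 times, 12 of the 30 members were called higher in neural tube (40.0%) and 2 higher in pancreas (6.67%), where 23.2% and 25.0% of all genes were. Of the 31 members that reached 1 FPKM in a sample, 24 had a difference above 0 and 7 below, with a median of 0.76, and the 14303 genes at that level had a median of -0.07.

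These counts moved with the scaling of the samples and with transcript composition. The members summed to 1375 FPKM in neural tube and 896 FPKM in pancreas, or 0.302% and 0.127% of all FPKM in those samples, and with the column totals made equal 20 of 30 members passed 2 times toward neural tube (66.7%), as did 39.2% of all genes under that scaling. Over all genes, differences also followed transcript length and GC content. The longest of 20 length classes, from 7806 bases up, had a median of 0.69 and the shortest -0.64. The most GC-rich of 20 classes had a median of 1.05 and the poorest -0.63. With the medians of these classes removed, called here the length and GC correction, 7 of 30 members passed 2 times toward neural tube (23.3%) and 0 toward pancreas, where 16.7% and 21.2% of the 10197 corrected genes did. At 4 times the correction left 0 members, where 6.86% of those genes passed toward neural tube and 10.7% toward pancreas.

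**Figure D2:**
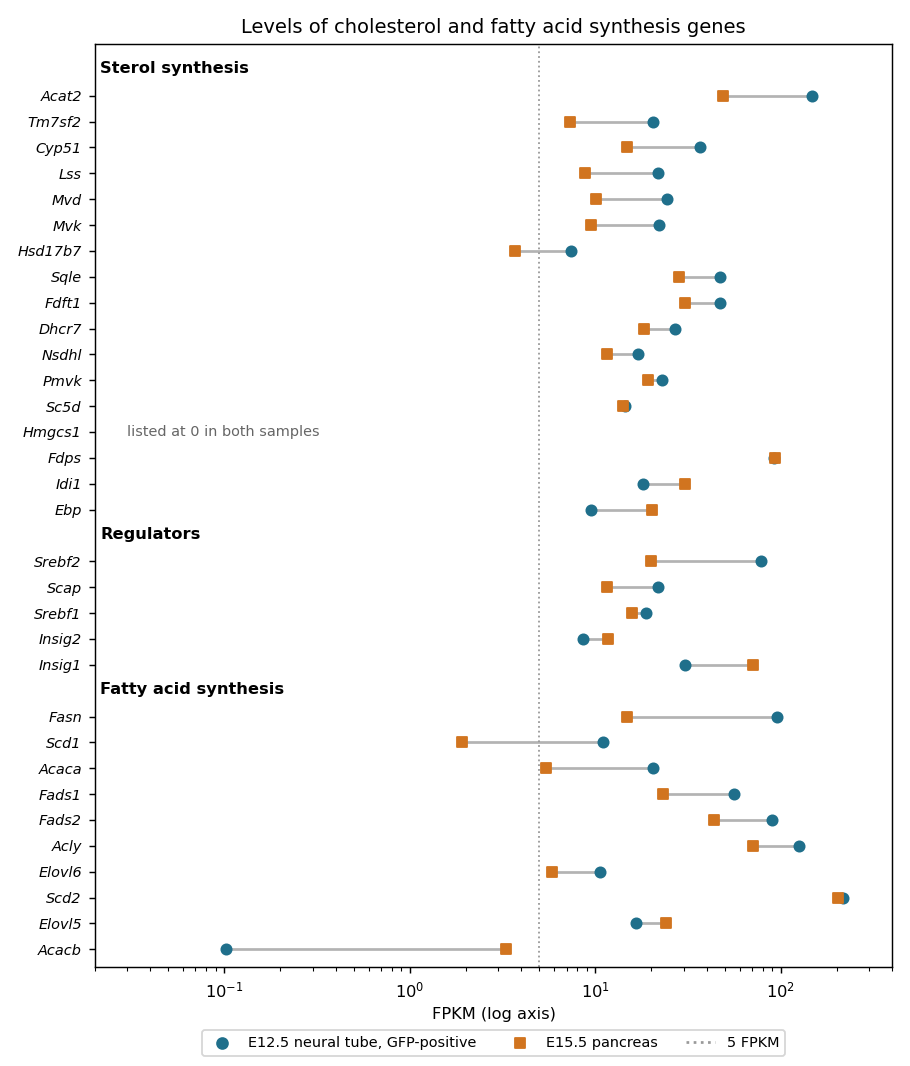
FPKM of each member on a log axis, in E12.5 GFP-positive neural tube cells (circles) and E15.5 pancreas (squares), ordered within each role by the difference in log2(FPKM + 1). Each point is 1 deposited value with no replicate error. Most circles lie right of their squares, Ebp, Idi1, Insig1, Insig2, Elovl5 and Acacb lie the other way, and Fdps is nearly level.

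The first enzyme of the mevalonate pathway had the largest difference among the sterol enzymes. Acat2, the cytosolic thiolase that makes acetoacetyl-CoA, stood at 148 FPKM in neural tube, against 49.0 FPKM in pancreas, a difference of 1.58. The length and GC correction left it at 1.87. A stretch of 445 bases of its transcript is matched at 98.7% identity in the neighbouring copy Acat3, which had 11.7 FPKM in neural tube, against 35.4 FPKM in pancreas, so the division of reads between these genes is uncertain.

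Hmgcs1, which encodes the cytosolic HMG-CoA synthase that acts next, was listed at 0 in neural tube and at 0 in pancreas. Sterol synthesis cannot proceed without this step, and a listed 0 is not a measured absence. Its promoter window matched the mm9 assembly on an unplaced contig alone. Of 20 genes in the table whose windows matched such contigs alone, 19 were listed at 0 in both samples (95%), against 8.89% of the 15663 other genes with a window. These genes were gathered after the 0 of Hmgcs1 had been seen, and the exception was Maml2. Why they are at 0 was not tested.

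The enzymes that phosphorylate and decarboxylate mevalonate differed in size. Mvk, mevalonate kinase, had 22.1 FPKM in neural tube, against 9.53 FPKM in pancreas. Mvd, which decarboxylates the diphosphate, had 24.4 FPKM in neural tube, against 10.1 FPKM in pancreas. Pmvk, phosphomevalonate kinase, had 22.9 FPKM in neural tube, against 19.3 FPKM in pancreas. Mvk and Mvd thus passed 2 times, with differences of 1.14 and 1.19, and Pmvk, which acts between them, differed by 0.24. The Mvk and Mvd transcripts have a GC content of 59.4% and 59.3%, and their differences were 0.62 and 0.64 with the length and GC correction.

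The enzymes of isoprenoid assembly were level or lower in neural tube as deposited. Idi1, the isomerase that makes dimethylallyl diphosphate, had 18.1 FPKM in neural tube, against 30.4 FPKM in pancreas, a difference of -0.72 and of -0.03 with the length and GC correction. Fdps, farnesyl diphosphate synthase, had 91.5 FPKM in neural tube, against 93.2 FPKM in pancreas. Its difference of -0.03 changed sign under 4 alternatives and was 0.515 with the length and GC correction. Farnesyl diphosphate also feeds protein prenylation and dolichol. Both genes have near-identical copies in mm9, that of Idi1 on chromosome 2 matching 99.3% over 2494 bases, so their levels are uncertain.

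From squalene past lanosterol all 4 enzymes were higher in neural tube. Fdft1, squalene synthase, had 47.3 FPKM in neural tube, against 30.5 FPKM in pancreas, and Sqle, squalene epoxidase, had 46.9 FPKM in neural tube, against 28.3 FPKM in pancreas. Lss, which folds squalene epoxide into lanosterol, had 21.8 FPKM in neural tube, against 8.79 FPKM in pancreas. Cyp51, the lanosterol demethylase, had 36.6 FPKM in neural tube, against 14.8 FPKM in pancreas. Fdft1 and Sqle, at 0.62 and 0.71, stayed under 2 times, and Lss and Cyp51, at 1.22 and 1.25, passed it. With the length and GC correction Lss was at 0.76 and Cyp51 at 1.24. Lss shares 381 exon bases with 4930483K19Rik on the opposite strand. Fdft1 shares 769 exon bases with Ctsb, a lysosomal protease gene on the opposite strand, and the sources used here do not say whether counting used strand. A copy of Fdft1, Gm6781, matched 97.4% over 1618 bases, so its level is uncertain.

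The last steps to cholesterol ran in both directions. Tm7sf2, a sterol reductase, had 20.6 FPKM in neural tube, against 7.27 FPKM in pancreas (1.38). It shares 532 exon bases with its neighbour 1110014N23Rik on the same strand, which had 21.4 FPKM in neural tube, against 9.78 FPKM in pancreas. Nsdhl and Hsd17b7 remove methyl groups at carbon C4 of the sterol ring. Nsdhl had 17.1 FPKM in neural tube, against 11.6 FPKM in pancreas (0.52), and Hsd17b7 had 7.39 FPKM in neural tube, against 3.69 FPKM in pancreas (0.84). Ebp, the sterol isomerase, was the sterol enzyme that went farthest the other way, with 9.53 FPKM in neural tube, against 20.1 FPKM in pancreas (-1.01). Sc5d, the desaturase that follows it, was level as deposited, with 14.4 FPKM in neural tube, against 14.2 FPKM in pancreas (0.03). Dhcr7, which turns 7-dehydrocholesterol into cholesterol, had 26.8 FPKM in neural tube, against 18.3 FPKM in pancreas (0.52). With the length and GC correction Tm7sf2 was at 1.455, Nsdhl at 1.03, Hsd17b7 at 0.97 and Dhcr7 at 0.42. Sc5d was then at 0.73, and Ebp, at -0.76, no longer passed 2 times.

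Of the 16 sterol enzymes with a level, 13 had a difference above 0 and 3 below, with a median of 0.66, or 0.72 with the length and GC correction. At 2 times, 6 were called higher in neural tube (37.5%, against 23.2% of all genes) and 1 higher in pancreas (6.25%, against 25.0%).

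Among the regulators, Srebf2 and Insig1 lay farthest apart. Srebf2 encodes SREBP-2, the factor that favours sterol genes, and had 77.8 FPKM in neural tube, against 19.97 FPKM in pancreas (1.91). Srebf1 encodes SREBP-1, the factor that favours fatty acid genes, and had 18.7 FPKM in neural tube, against 15.8 FPKM in pancreas (0.23). Srebf1 shares 109 exon bases with Rai1 on the opposite strand, and the use of strand is not stated. Rai1 had 17.48 FPKM in neural tube, against 4.285 FPKM in pancreas. Srebf2 exceeded Srebf1 by 4.17 times in neural tube and by 1.26 times in pancreas. The table gives 1 value for the isoforms SREBP-1a and SREBP-1c together. With the length and GC correction Srebf2 was at 0.83 and Srebf1 at -0.88.

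The INSIG genes, which encode the brakes of the pathway, were both lower in neural tube. Insig1, itself a known SREBP target, had 30.3 FPKM in neural tube, against 70.4 FPKM in pancreas (-1.19, and -0.99 with the length and GC correction). It was the 1 regulator of 5 called higher in pancreas at 2 times, a smaller share than the 25.0% of all genes. Toward neural tube 1 of the 5, Srebf2, was called, also a smaller share than the 23.2% of all genes. Insig2 had 8.62 FPKM in neural tube, against 11.7 FPKM in pancreas (-0.40, and 0.17 with equal totals). A copy of Insig1 on mm9 chromosome 3 (69767202 to 69769239) matched 97.9% over 2040 bases, so the level of Insig1 is uncertain. Scap had 21.8 FPKM in neural tube, against 11.6 FPKM in pancreas (0.86), and was at -0.26 with the length and GC correction. It shares 985 exon bases with 5830462I19Rik on the opposite strand, and the use of strand is not stated, so its level is uncertain.

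Fatty acid synthesis held the 2 members called at 4 times. Fasn, which encodes fatty acid synthase (mm9 chromosome 11, 120667254 to 120685492, minus strand), had 95.6 FPKM in neural tube, against 14.9 FPKM in pancreas, 6.43 times in FPKM and 2.61 in log2(FPKM + 1). Fasn stood at percentile 97.1 of all genes in neural tube and at percentile 79.8 in pancreas. Its transcript has 9587 bases, in the longest class, and a GC content of 57.4%. With the length and GC correction the difference was 1.03, past 2 times and no longer past 4, and below the corrected differences of Scd1, Acat2, Tm7sf2 and Cyp51 among others.

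The enzymes that supply Fasn were higher in neural tube too. Acly, ATP citrate lyase, which makes cytosolic acetyl-CoA, had 125 FPKM in neural tube, against 71.3 FPKM in pancreas (0.81). Acaca, acetyl-CoA carboxylase 1, which makes malonyl-CoA for synthesis, had 20.6 FPKM in neural tube, against 5.45 FPKM in pancreas (1.74, and 0.88 with the length and GC correction). A copy of Acaca on mm9 chromosome 12 matched 99.1% over 8093 bases, so its level is uncertain.

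Acacb ran against Acaca. It encodes the carboxylase at the mitochondrial surface, whose malonyl-CoA restrains the entry of fatty acids for oxidation. Acacb had 0.103 FPKM in neural tube, against 3.30 FPKM in pancreas, or roughly 21 and 1239 fragments in those samples. The difference of -1.96 was not called, since both levels lay under 5 FPKM, though in FPKM alone it was 32.2 times, more than for any other member, and with the length and GC correction it was -3.32. Acaca exceeded Acacb by 200.5 times in neural tube and by 1.65 times in pancreas, a ratio that no scaling of the samples alters.

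The stearoyl-CoA desaturases, which put the first double bond into saturated chains, differed between paralogs. Scd1 (mm9 chromosome 19, 44468941 to 44482199) had 11.0 FPKM in neural tube, against 1.91 FPKM in pancreas, 5.74 times in FPKM and 2.04 in log2(FPKM + 1). Scd2 (44368166 to 44381354), the form best known from brain, was the highest member in both, with 216 FPKM in neural tube, against 204 FPKM in pancreas (0.08, and -0.28 with the length and GC correction). Scd2 exceeded Scd1 by 19.7 times in neural tube and by 107 times in pancreas. Scd1 lay just past 4 times and fell short of it with upper quartile scaling, with a pseudocount of 5 FPKM and with the length and GC correction (1.99).

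The Fads desaturases and the elongases were mixed as deposited. Fads1, the delta-5 desaturase, had 56.1 FPKM in neural tube, against 23.2 FPKM in pancreas (1.24), and Fads2, the delta-6 desaturase, had 90.1 FPKM in neural tube, against 43.5 FPKM in pancreas (1.03). With the length and GC correction Fads1 was at 1.03 and Fads2 at 0.92, so Fads2 no longer passed 2 times. Fads2 exceeded Fads1 by 1.61 times in neural tube and by 1.88 times in pancreas, the ratio that differed least of the 6 computed. Elovl6, which lengthens palmitate, had 10.5 FPKM in neural tube, against 5.82 FPKM in pancreas (0.76), and its level is uncertain, since Gm11295 matched it at 97.8% over 498 bases and at 95.1% over 1749. Elovl5, which lengthens polyunsaturated chains, had 16.7 FPKM in neural tube, against 24.2 FPKM in pancreas (-0.51). It was at 0.09 with equal totals and at -0.07 with the length and GC correction.

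Of the 10 fatty acid genes, 8 had a difference above 0 and 2 below, with a median of 0.92, or 0.82 with the length and GC correction. Of the 9 that reached 5 FPKM, 5 passed 2 times toward neural tube (55.6%, against 23.2% of all genes) and 0 toward pancreas.

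**Figure D3:**
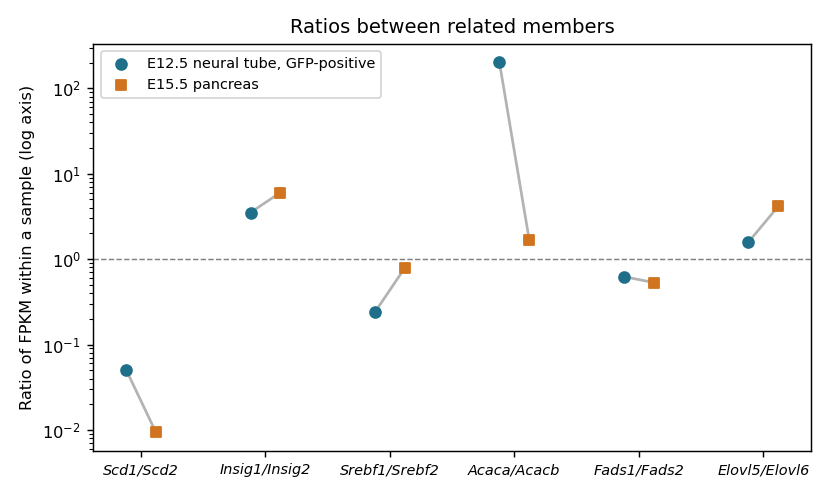
Ratio of FPKM between related members within each sample, on a log axis, in E12.5 GFP-positive neural tube cells (circles) and E15.5 pancreas (squares), each from 1 deposited value per gene. The ratio of Acaca to Acacb differed most between the samples, with 200.5 in neural tube, against 1.65 in pancreas, and that of Fads1 to Fads2 least.

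**Figure D4:**
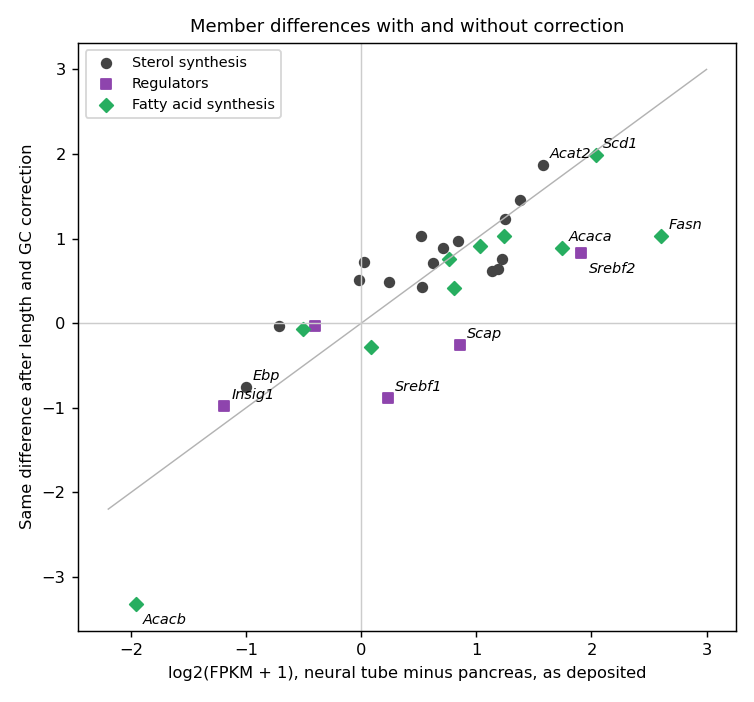
Difference in log2(FPKM + 1), neural tube minus pancreas, of 31 members as deposited (x axis) and with the medians of 20 length and 20 GC classes removed (y axis), with the line of equal values. Fasn, Srebf2 and Acaca lie below the line but above 0, Srebf1 and Scap cross to below 0, and Scd1 and Insig1 lie close to the line.

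The other genes of sterol synthesis were mixed. The 12 further sterol and isoprenoid genes had a median difference of -0.48, with 5 above 0 and 7 below. Acat1, the mitochondrial thiolase of ketone metabolism, had 14.3 FPKM in neural tube, against 45.1 FPKM in pancreas (-1.59).

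Genes of sterol uptake, export and esterification ran in both directions. Of 19, 12 reached 5 FPKM, and at 2 times 3 of these were called higher in neural tube (25.0%, against 23.2% of all genes) and 4 higher in pancreas (33.3%, against 25.0%). At 4 times the counts were 2 (16.7%, against 10.3%) and 0. Of the 18 at 1 FPKM, 6 had a difference above 0 and 12 below, with a median of -0.42. Of all 14303 genes at that level, 6872 were above 0 and 7431 below, with a median of -0.07. Lrp8, a receptor for lipoproteins and reelin, had 20.96 FPKM in neural tube, against 0.969 FPKM in pancreas (3.48). Lrp1, a lipoprotein receptor of wide expression, had 49.5 FPKM in neural tube, against 8.54 FPKM in pancreas (2.40). Those toward pancreas included, named after their values were seen, Abca1, the cholesterol exporter, with 1.79 FPKM in neural tube, against 5.49 FPKM in pancreas, and Soat1, which esterifies cholesterol, with 4.59 FPKM in neural tube, against 11.6 FPKM in pancreas.

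Of 24 further genes of fatty acid synthesis, elongation and activation, 19 reached 5 FPKM, and at 4 times 2 of these were called higher in neural tube (10.5%, near the 10.3% of all genes) and 4 higher in pancreas (21.1%, against 11.9%). At 2 times the counts were 4 (21.1%, against 23.2%) and 6 (31.6%, against 25.0%), and the median was -0.45. Acsl6, an acyl-CoA synthetase known from brain, had 13.2 FPKM in neural tube, against 0.615 FPKM in pancreas. Elovl4, which makes very long chains, had 10.5 FPKM in neural tube, against 0.623 FPKM in pancreas. On the other side, the synthetase Acsl5 had 2.35 FPKM in neural tube, against 32.6 FPKM in pancreas, and Elovl1, an elongase of saturated chains, had 4.97 FPKM in neural tube, against 26.2 FPKM in pancreas. Ptpla, a dehydratase of elongation, and Fads3, a relative of the desaturases, were the others called higher in pancreas. Tecr, the reductase that ends each round of elongation, was the highest of these genes, with 198 FPKM in neural tube, against 181 FPKM in pancreas.

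Genes of fatty acid oxidation stood mostly lower in neural tube. Of 17 in the table, 16 reached 5 FPKM, and at 4 times 0 were called higher in neural tube and 7 higher in pancreas (43.8%, against 11.9% of all genes). At 2 times, 1 passed toward neural tube (6.25%, against 23.2% of all genes) and 12 toward pancreas (75%, against 25.0%). The median was -1.32, or -0.72 with equal totals. Cpt1a, the transferase that admits fatty acids to mitochondria and that malonyl-CoA inhibits, had 0.964 FPKM in neural tube, against 11.3 FPKM in pancreas (-2.65). Acaa2, the last thiolase of the cycle, had 13.8 FPKM in neural tube, against 136 FPKM in pancreas (-3.21). The other 5 called were Acadm and Acadl, dehydrogenases that open the cycle, Hadh and Hadhb of its later steps, and Decr1, which handles unsaturated chains, with differences between -2.13 and -2.73. Eci2, an enoyl-CoA isomerase, was the highest of the list in neural tube, with 23.9 FPKM in neural tube, against 55.5 FPKM in pancreas. Cpt1c, the brain form of the transferase, named after its values were seen, was the 1 gene past 2 times toward neural tube, with 17.0 FPKM in neural tube, against 5.93 FPKM in pancreas.

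**Figure D5:**
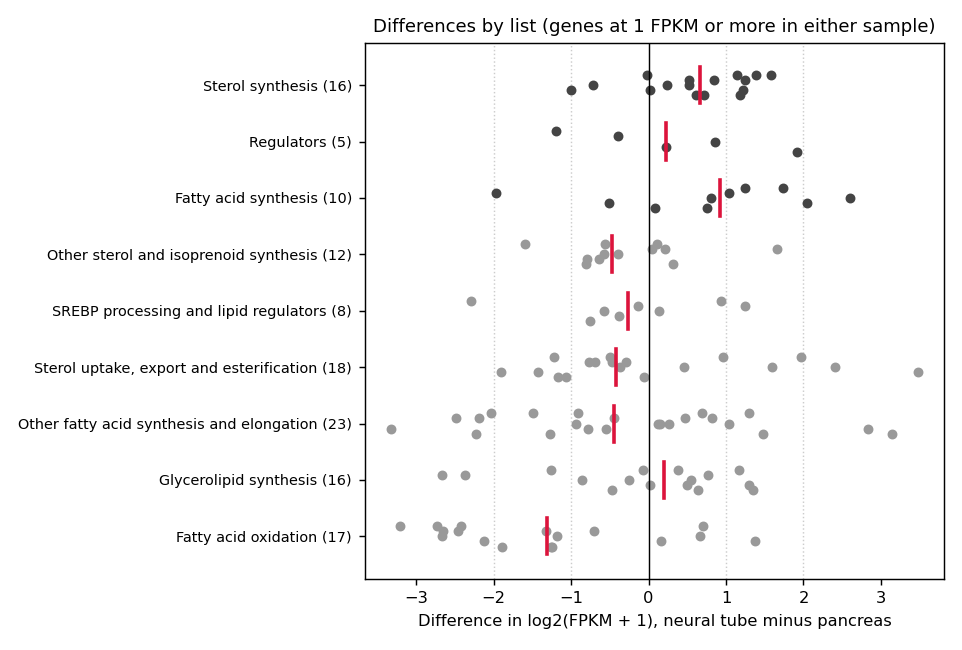
Difference in log2(FPKM + 1), neural tube minus pancreas, of genes at 1 FPKM or above in a sample, by list, with the number of genes in brackets. Each point is a gene, the vertical bar of each list is its median, and dotted lines mark 2 and 4 times. Medians of the lists ran from 0.92 for the fatty acid synthesis members to -1.32 for fatty acid oxidation.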

How the data were processed

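The authors deposited 1 FPKM value per gene for each tissue, per the file headers. Per the submitters' processing notes the tools were CASAVA, TopHat, TopHat2 2.0.4 and Cuffdiff 2.0.2 and the build mm9, with no role or order given. The sources used here do not state the annotation, filters or use of strand. A column kit yielded the RNA of the sorted cells and Trizol that of pancreas, per the labels' protocols. Both value columns were used, and the other 16 of 18 samples, of chromatin, are not analysed here. Each column is the authors' pooled value.

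Differences are log2(FPKM + 1), neural tube minus pancreas, a scale that understates differences of low genes. Calls needed 5 FPKM in the higher sample, and list medians used genes at 1 FPKM in either. No test was possible without replicates. Members and lists were chosen with earlier results of these data known. Named beyond the members were genes called at 4 times and the highest of each list. Some of these are not reported here.

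Positions come from GENCODE M1 on NCBIM37, the mm9 assembly, where 31 members matched. Copies are BLAST+ 2.17.0 megablast hits of at least 95% identity over 300 bases. Length and GC are those of the longest coding transcript, known for 31 members and 20244 genes. The script that makes the calls was checked on simulated data with known folds. Analyses used Python 3.11.15, numpy 2.4.6 and pandas 2.3.3.

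Depth is an estimate from the commonest small spacing of length-scaled FPKM, 1 fragment on 1 kb being worth about 0.0426 FPKM in neural tube and 0.0234 FPKM in pancreas. It bears on counting error only. Alternatives were 2 pseudocounts, 2 minimums, 5 rescalings, 2 fold thresholds, the length and GC correction and, chosen after seeing the data, leaving out members with copies or at least 100 shared exon bases.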

Additional observations from a re-analysis of the deposited data

How the results depend on the processing

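Of 13 alternatives, 6 can turn a sign: 5 rescalings, which move all genes alike, and the length and GC correction. Under these 6, 24 of the 31 members with a level kept their direction. The correction alone turned Srebf1, Scap and Scd2, a rescaling alone Sc5d, Insig2 and Elovl5, and both kinds Fdps. Members called toward neural tube at 4 times were 2 as reported (6.67%, against 10.3% of all genes). They were 1 with a pseudocount of 5 FPKM (3.33%, against 4.77%) or upper quartile scaling (3.33%, against 9.85%). Housekeeping scaling gave 4 (13.3%, against 12.9%). Equal totals without acinar enzymes, small RNA genes and the 50 highest genes (trimmed totals) also gave 4 (13.3%, against 13.1%). Equal totals gave 5 (16.7%, against 16.5%). Under these 3 rescalings the share of members was near that of all genes. Members so called were 0 with the length and GC correction (against 6.86% of genes so corrected). With the threshold at 2 times they were 12 (40.0%, against 23.2% of all genes). With the threshold at 8 times they were 0. The share of all genes was not computed there, so that 0 cannot be read as a trait of the members. Those toward pancreas, 0 as reported, were 2 at 2 times. At 2 times, members toward neural tube numbered 12, 20 with equal totals (66.7%, against 39.2% of all genes so scaled) and 7 with the length and GC correction (23.3%, against 16.7% of genes so corrected). Those toward pancreas numbered 2 (6.67%, against 25.0% of all genes), and 3 with no minimum (9.68%, against 15.8%). With a pseudocount of 5 FPKM they numbered 1 (3.33%, against 18.6%). Without the 11 members that have copies or shared exons (chosen after seeing the data) they also numbered 1 (5.26%, against 25.0%). They numbered 0 with housekeeping scaling, equal totals, trimmed totals or the length and GC correction. The shares of all genes there were 19.7%, 15.0%, 19.4% and 21.2%. The regulator median of 0.23 was 0.50 with housekeeping scaling, 0.82 with equal totals, 0.52 with trimmed totals and -0.26 with the length and GC correction. Without members with copies or shared exons it was 0.76, from Srebf2 (1.91) and Insig2 (-0.40) alone. With equal totals the medians were 1.27 for sterol synthesis, 1.54 for fatty acid synthesis and -0.72 for oxidation. Housekeeping scaling moved the median of genes at 1 FPKM in both samples from 0.02 to 0.28, equal totals moved it to 0.57, and trimmed totals to 0.29. The cause of these shifts was not tested. At 5 FPKM a 1 kb transcript had about 117 fragments in neural tube and 214 in pancreas, and the replicate spread is unknown. No paired analysis was possible because each tissue has 1 pooled value.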

Other observations

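Genes of glycerolipid synthesis, which turn fatty acids into membrane and storage lipid, showed no common direction. Of 18 genes, 13 reached 5 FPKM, and the median difference was 0.20. At 2 times, 2 passed toward neural tube (15.4%, against 23.2% of all genes) and 2 toward pancreas (15.4%, against 25.0%). Agpat1, an acyltransferase of phosphatidic acid synthesis, was the highest in both samples at 62.5 FPKM in neural tube and 27.2 FPKM in pancreas. Its relative Agpat2 was called the other way, with 1.25 FPKM in neural tube, against 13.3 FPKM in pancreas.

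Of 12 further regulators of lipid genes, 7 reached 5 FPKM, and 1 was called at 4 times, toward pancreas (14.3%, against 11.9% of all genes). It was Mlxipl, which encodes the carbohydrate response factor ChREBP, with 0.647 FPKM in neural tube, against 7.10 FPKM in pancreas. Mbtps1, the protease that first cuts SREBPs, was the highest of the list in both, with 36.4 FPKM in neural tube, against 40.1 FPKM in pancreas.

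Of the 19 genes at 0 in both samples whose windows matched unplaced contigs of mm9 alone, Hmgcs1 was 1. Aida, Brox, Disp1, Mia3, Taf1a, Ccdc82 and Jrkl, named after their values were seen, were others.

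Within the list of sterol uptake and export, a pair of genes named after their values were seen ran in opposite directions. Cyp46a1, the cholesterol hydroxylase of neurons, had 8.87 FPKM in neural tube, against 1.53 FPKM in pancreas, and Scarb1, a receptor for high-density lipoprotein, had 7.66 FPKM in neural tube, against 22.2 FPKM in pancreas.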
